A study of Mus musculus with 90 samples.

Results

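Cholesterol synthesis and SREBP2 target genes were followed as a set of 28 genes, chosen by name from the 18223 genes of the deposited tables: 20 enzymes of the pathway, 4 genes of sterol sensing and 4 genes of sterol transport. All 28 were found. The livers came from 90 female Diversity Outbred mice (J:DO), an outbred stock in which no animal is genetically identical to another. Vehicle was sterile distilled water (41 animals) and zileuton, an inhibitor of leukotriene synthesis, was given at 300 mg/kg (49 animals), both by mouth once a day for 7 days. Animals were 6 to 20 weeks old and were assigned to groups at random, per the labels. Coats were agouti (29 vehicle and 34 zileuton animals), black (6 and 6) or white (6 and 9). RNA was taken from 25 mg of liver, and RNA with an integrity number under 8 was left out. Each animal gave 1 library, so the spread between libraries includes genotype, and the level of a gene is that of the whole tissue, in which fewer cells of a type and less RNA per cell cannot be told apart.

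Liver makes cholesterol from acetyl-CoA through mevalonate, farnesyl diphosphate, squalene and lanosterol. The transcription factor SREBP2, encoded by Srebf2, drives nearly every enzyme of the route and is held in the endoplasmic reticulum by the escort protein SCAP and the retention proteins INSIG1 and INSIG2 when sterols are plentiful. When sterols fall, SCAP carries SREBP2 to the Golgi, where proteases free its active part, so that its targets, Srebf2 itself and Insig1 included, rise together.

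The libraries held 12664579 to 41360187 estimated counts (median 25535799), and the least counted of the 27 members tested, Ggps1, had a median of 141 counts. Albumin, a hepatocyte product, stood at 100019 CPM (counts scaled to a common library size with TMM factors) in vehicle animals. Of 8 hepatocyte markers, 1 was higher and 4 were lower with zileuton, and their summed level ran from 101885 to 196694 CPM in vehicle and from 86003 to 178363 CPM in zileuton animals. Of 7 Kupffer cell markers, 0 were called by edgeR, limma-voom or DESeq2, and 0 had an unadjusted p under 0.05. Of 6 stellate cell markers 1 was higher and 2 were lower, and their sum ran from 261.1 to 632.1 CPM in vehicle and from 239.3 to 542.7 CPM in zileuton animals. Of 6 cholangiocyte markers 1 was called by edgeR and by DESeq2, 2 by limma-voom, and 4 had an unadjusted p under 0.05 (edgeR). Sox9, the 1 called by edgeR, fell by 0.86 ± 0.14 on the log2 scale (adjusted p = 5.79e-07). The median log2 fold change of the 6 was −0.31. Their sum ran from 17.5 to 65.1 CPM (median 39.2) in vehicle and from 16.1 to 77.5 CPM (median 33.5) in zileuton animals. In sinusoidal endothelium 1 of 6 markers was lower, in lymphocytes 1 of 5 (2 called by DESeq2 and by limma-voom) and in neutrophils 1 of 3 (0 by DESeq2 or limma-voom). Of the 5 lymphocyte markers 3 had an unadjusted p under 0.05 (edgeR), and the median log2 fold change of the 5 was −0.37. The summed medians, in the same order, were 192.9, 3.65 and 2.30 CPM in vehicle and 186, 3.09 and 2.87 CPM in zileuton animals. Skeletal muscle markers summed to at most 2511 CPM in a vehicle and 1706 CPM in a zileuton library, against medians of 0.372 and 0.394 CPM. Over all tested genes 29.3% were called by edgeR. The part of these markers in the results below was not tested. Animal numbers fall into 8 runs of 50 consecutive numbers, each holding both groups. Within a run the vehicle animals held positions 13 to 20 and the zileuton animals positions 25 to 50, so position and exposure cannot be told apart.

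Promoters of some members are shown first. Whether a motif goes with the level of a gene, or with its variation between animals, was not tested. RefSeq start sites on build GRCm38.p6 were at hand for 23 of the 28 members. Each line gives the 250 bases before a start site that carried no annotated exon, read 5′ to 3′ on the strand of the gene. Such sites of Pmvk, Lbr, Npc1l1 and Scap are not shown. The Scap site held none of the motifs searched, and the Pmvk and Npc1l1 sites held a CCAAT match and no other motif. Capitals mark matches on either strand. The motifs searched were the pentamer CCAAT, the GC box motif GGGCGG, the E-box motif CACGTG, the form of the sterol response element written TCACNCCAC, and TAGGTCA, a site of the clock-linked ROR receptors.
Hmgcs1, chr13:119690101-119690350, plus strand: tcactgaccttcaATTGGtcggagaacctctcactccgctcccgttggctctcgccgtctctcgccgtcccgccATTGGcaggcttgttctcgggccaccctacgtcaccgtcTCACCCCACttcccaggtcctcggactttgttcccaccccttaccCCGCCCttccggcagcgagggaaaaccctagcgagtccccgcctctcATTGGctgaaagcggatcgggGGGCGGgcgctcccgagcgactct
Mvd, chr8:122443423-122443672, minus strand: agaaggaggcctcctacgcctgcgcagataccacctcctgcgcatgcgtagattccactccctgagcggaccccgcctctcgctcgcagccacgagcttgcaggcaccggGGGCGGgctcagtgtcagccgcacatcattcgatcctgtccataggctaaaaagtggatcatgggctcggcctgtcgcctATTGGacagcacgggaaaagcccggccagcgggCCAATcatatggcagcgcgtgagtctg
Ebp, chrX:8193513-8193762, minus strand: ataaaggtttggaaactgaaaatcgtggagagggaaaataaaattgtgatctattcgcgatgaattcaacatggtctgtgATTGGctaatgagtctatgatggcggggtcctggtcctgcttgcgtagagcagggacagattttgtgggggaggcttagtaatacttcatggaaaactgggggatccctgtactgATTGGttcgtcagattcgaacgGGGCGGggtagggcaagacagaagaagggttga
Sc5d, chr9:42264301-42264550, minus strand: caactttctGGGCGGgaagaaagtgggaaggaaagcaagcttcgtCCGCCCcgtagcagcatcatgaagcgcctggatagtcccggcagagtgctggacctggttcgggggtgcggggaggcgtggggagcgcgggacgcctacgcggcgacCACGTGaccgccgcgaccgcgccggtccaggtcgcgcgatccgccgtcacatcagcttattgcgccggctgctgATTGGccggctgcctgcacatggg
Insig2, chr1:121332590-121332839, minus strand: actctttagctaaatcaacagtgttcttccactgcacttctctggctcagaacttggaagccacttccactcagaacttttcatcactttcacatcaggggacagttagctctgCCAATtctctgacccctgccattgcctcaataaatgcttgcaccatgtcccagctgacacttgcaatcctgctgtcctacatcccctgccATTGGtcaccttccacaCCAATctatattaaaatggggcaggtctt

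The CCAAT pentamer, the core of sites for NF-Y, a factor that works beside SREBPs, was in 21 of the 23 matched members, against 40.6% of 10340 tested genes with a listed start site and 37.5% of all 27025 genes. The GC box was in 20 of 23 members and in 61.6% of tested genes. TCACNCCAC was found before Hmgcs1, 137 bases from the start site, and before no other matched member (1.32% of tested genes). Other forms of the sterol response element, and bases farther from the start, were not searched. Sqle, Fdps, Fdft1, Stard4 and Npc1 had no matched start site and were not searched at all. The E-box was in 5 members (9.80% of tested genes), and TAGGTCA in Dhcr7 (2.25%). A gene with several start sites counted when any of them held the motif. Insig2 has 3 listed start sites, and the most upstream, shown above, holds 3 CCAAT matches. A match is a description of the letters and no evidence of binding.

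Levels per kilobase of merged exons put Insig1 first in vehicle animals, at 168.7 CPM per kb, followed by Hmgcs1 at 133.4, Ebp at 126.7, Sc5d at 109.8 and Insig2 at 98.9 CPM per kb. Srebf2, at 11.4 CPM per kb, lay in the lower part of the order, between Mvk at 12.8 and Npc1 at 9.56 CPM per kb. Lbr, at 2.41 CPM per kb, and Ggps1, at 1.19 CPM per kb, were the lowest of the tested members. Npc1l1, the sterol uptake transporter of the intestine and of human liver, was near the floor at 0.0728 ± 0.0905 CPM (SD, n = 41) in vehicle and 0.105 ± 0.156 CPM (n = 49) in zileuton animals. It had 0 counts in 10 and 12 libraries and was too low to test.

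Zileuton livers held more Msmo1 and Npc1 and less Srebf2 and Insig2 transcript than vehicle livers, each by a modest amount against a wide spread between animals. These were the 4 of 27 members past the threshold (edgeR quasi-likelihood test, adjusted p under 0.05 over all 13248 genes), or 14.8%, where 29.3% of all tested genes passed. By direction, 2 members were higher, where 14.4% of all genes were, and 2 were lower, where 14.8% were. The log2 fold changes were above 0 for 18 members and below 0 for 9, with a median of 0.04 against −0.01 over all tested genes. At an unadjusted p under 0.05 there were 8, the further ones being Fdft1, Lss, Tm7sf2 and Stard4.

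Srebf2, on chromosome 15 (82147181 to 82205379, plus strand, mm10), ran from 61.7 to 109 CPM (median 82.7) in vehicle and from 49.3 to 114 CPM (median 69.3) in zileuton animals. The groups overlapped, but 41 of 49 zileuton animals lay under the vehicle median. Srebf2 fell by 0.20 ± 0.048 (SE) on the log2 scale (fold 0.873, adjusted p = 7.26e-04), and the mean was lower with zileuton in all 8 runs. Scap, the escort, showed no such shift, with medians of 141.7 and 144.1 CPM and a log2 fold change of −0.01 (95% interval −0.10 to 0.08). Insig1, the SREBP2-driven retention protein, ran from 218.7 to 881 CPM (median 516.5) in vehicle and from 260.5 to 1095 CPM (median 475.3) in zileuton animals. Its log2 fold change was −0.08 ± 0.091 (adjusted p = 0.569), an interval of −0.26 to 0.10.

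Insig2, the other retention protein, on chromosome 1 (121304353 to 121332589, minus strand), showed the largest change of the set. It ran from 122.5 to 524.1 CPM (median 343.2) in vehicle and from 120.2 to 730.5 CPM (median 240.3) in zileuton animals. Of the zileuton animals 44 of 49 lay under the vehicle median, while the ranges overlapped almost wholly. Insig2 fell by 0.42 ± 0.11 on the log2 scale (fold 0.748, adjusted p = 0.00132), with a lower mean in 7 of 8 runs, from −1.53 to 0.28.

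**Figure D1:**
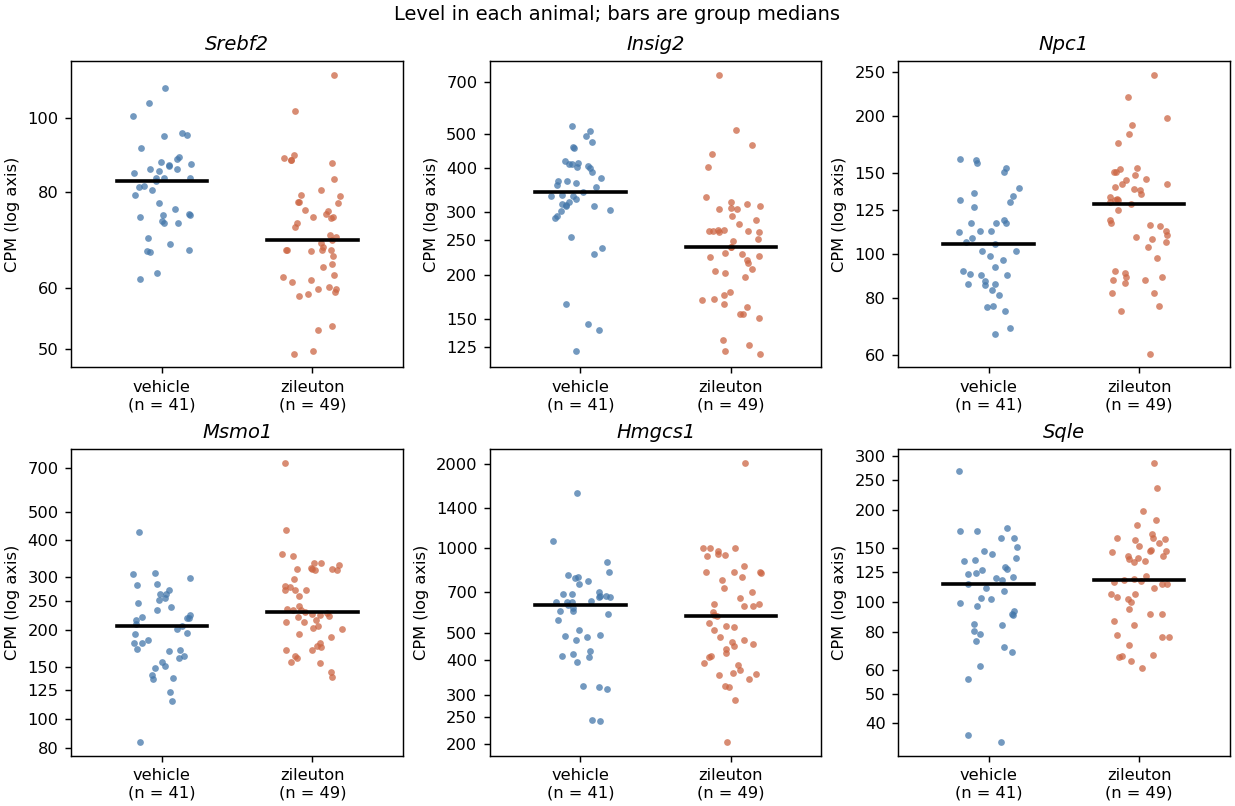
CPM (log axis) of Srebf2, Insig2, Npc1, Msmo1, Hmgcs1 and Sqle in each of 41 vehicle and 49 zileuton animals, 1 point per animal, with bars at the group medians. Medians are lower with zileuton for Srebf2 (69.3 against 82.7) and Insig2 (240.3 against 343.2), while Hmgcs1 and Sqle spread over several-fold in both groups.

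Of the 8 genes of the mevalonate steps 0 passed the edgeR threshold, and 0 had an unadjusted p under 0.05. DESeq2 and limma-voom called none of the 8 either. Hmgcs1, the synthase that makes HMG-CoA, on chromosome 13 (119690379 to 119708260, plus strand), ran from 241.3 to 1576 CPM (median 628.8) in vehicle and from 204.2 to 2019 CPM (median 574.1) in zileuton animals. Its log2 fold change of 0.03 had an interval of −0.21 to 0.28. Acat2, the thiolase that joins acetyl-CoA units, had means of 160.1 ± 42.8 and 177.2 ± 48.1 CPM (log2 fold change 0.15 ± 0.079, adjusted p = 0.159). Acat3, 97.7% identical over 1477 bases, is in the tables too, so reads of the pair may have been divided between them. Mevalonate kinase (Mvk), phosphomevalonate kinase (Pmvk), the decarboxylase Mvd and the isomerase Idi1 had log2 fold changes between −0.01 and 0.04. Fdps, which builds farnesyl diphosphate, stood at 229.9 ± 74.7 and 251.9 ± 84.5 CPM (0.13 ± 0.098). It shares 1124 exon bases on the same strand with Gm43738, which the deposited data do not list, so its counts are uncertain. Unlisted genes also come near Idi1 (Gm13502, 100% identical over 684 bases) and Ggps1 (Gm5630, 97.2% over 903 bases). Ggps1, which leads away from sterols towards protein prenylation, had the lowest log2 fold change of the 8 genes, at −0.09 ± 0.044 (adjusted p = 0.144).

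Squalene synthase (Fdft1), squalene epoxidase (Sqle) and lanosterol synthase (Lss), which commit the route to sterols, had log2 fold changes of 0.19 ± 0.090, 0.13 ± 0.11 and 0.22 ± 0.10, with adjusted p = 0.108, 0.397 and 0.0971 by edgeR. Sqle, on chromosome 15 (59315077 to 59331192, plus strand), ran from 34.9 to 269.1 CPM (median 114) in vehicle and from 60.9 to 284.7 CPM (median 117.9) in zileuton animals, with 29 of 49 above the vehicle median. Lss was higher in 7 of 8 runs. Fdft1 shares 774 exon bases with Ctsb on the other strand, and the use of strand in counting is not stated.

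Among the 9 genes after lanosterol, Msmo1, a methylsterol oxidase on chromosome 8 (64718139 to 64733792, minus strand), was the 1 called. It ran from 83.9 to 427.2 CPM (median 205.3) in vehicle and from 138.1 to 727.9 CPM (median 229) in zileuton animals, 34 of 49 of them above the vehicle median. Msmo1 rose by 0.27 ± 0.098 on the log2 scale (fold 1.21, adjusted p = 0.0263), and the mean was higher in 7 of 8 runs. Without zileuton replicate 17, the animal with the highest level of most enzymes, adjusted p was 0.0554. Without run 1, 3, 5 or 6 it was between 0.0521 and 0.101. The demethylase Cyp51 was at 0.17 ± 0.10, the dehydrogenase Nsdhl at 0.17 ± 0.087, the reductase Dhcr7 at 0.16 ± 0.092 and the reductase Tm7sf2 at 0.12 ± 0.059. Hsd17b7, Ebp and Sc5d, a reductase, an isomerase and a desaturase, lay between −0.05 and 0.06. Lbr, the lamin B receptor, which is also a sterol reductase, was at −0.07 ± 0.043. Tm7sf2 shares 532 exon bases with Vps51 on the same strand, so its counts are uncertain.

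Npc1, the lysosomal membrane protein that lets cholesterol leave lysosomes, ran from 66.7 to 161.8 CPM (median 105.1) in vehicle and from 60.5 to 246.4 CPM (median 128.8) in zileuton animals. Of these, 35 of 49 lay above the vehicle median and 7 outside the vehicle range. Npc1 rose by 0.23 ± 0.082 on the log2 scale (fold 1.17, adjusted p = 0.0235) and was higher in all 8 runs. It shares 511 exon bases with Rmc1 on the other strand, and the use of strand in counting is not stated. The partner of Npc1, Npc2, had means of 90.6 ± 13.7 and 92.4 ± 10.1 CPM (0.03 ± 0.039). Stard4, a cytosolic sterol carrier, had means of 146.1 ± 23.4 and 157.4 ± 24.3 CPM. It was higher in all 8 runs, with a log2 fold change of 0.11 ± 0.048 (adjusted p = 0.0853). With the run as a covariate, adjusted p for Stard4 was 0.0289.

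The level of Insig2 and Npc1 followed that of the circadian clock genes. A clock score was the mean of 11 clock genes of the Per and Dbp phase minus the mean of 5 genes that peak with Bmal1, each scaled over all animals. It averaged −1.32 ± 1.27 in vehicle and 1.11 ± 1.17 in zileuton animals, and 48 of 49 zileuton animals lay above the vehicle median. The labels state no sampling time. With the score as a covariate 2.9% of genes were called, and 0 of 27 members were (edgeR). At an unadjusted p under 0.05 there were 2, Npc1 and Srebf2. Insig2 then stood at 0.23 ± 0.11 and Npc1 at −0.21 ± 0.099, the other sign from the fit without the score (adjusted p = 0.297 and 0.251). Srebf2 kept its sign at −0.14 ± 0.067 (adjusted p = 0.27), and Msmo1 was at 0.10 ± 0.14 (adjusted p = 0.775). With position in the run as a covariate 1.64% of genes were called and 0 of 27 members were, with 9 at an unadjusted p under 0.05. Of these 9, Ggps1 was lower (−0.22 ± 0.096) and Fdft1 (0.56 ± 0.19), Fdps (0.54 ± 0.21), Cyp51, Dhcr7, Nsdhl, Acat2, Mvk and Tm7sf2 were higher, and Fdft1 had the lowest adjusted p of the members, 0.106 (edgeR). The median log2 fold change of the members was 0.32 in that fit, with 22 of 27 above 0, against −0.01 over all tested genes. Most of the enzymes vary together, so these signs are not separate results, and the set was not tested. Standard errors were wider in that fit (for Hmgcs1 0.27, against 0.12 without a covariate). Insig2 was at 0.29 ± 0.21, Npc1 at −0.16 ± 0.17 and Srebf2 at −0.01 ± 0.10. Position separates the groups wholly, so its share cannot be told apart from that of exposure. The clock score overlapped, running from −2.85 to 2.60 in vehicle and from −2.16 to 3.03 in zileuton animals. Its group averages lay far apart, so its share can be told apart from that of exposure only in part. Of the genes in the score, all 11 of the Per and Dbp phase were called higher with zileuton (edgeR, no covariate). All 5 that peak with Bmal1 were called lower, where 14.4% of all genes were higher and 14.8% lower. With position as a covariate 0 of the 11 and 0 of the 5 were called. The score itself was not tested against exposure, and whether exposure moved it was not tested.

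**Figure D2:**
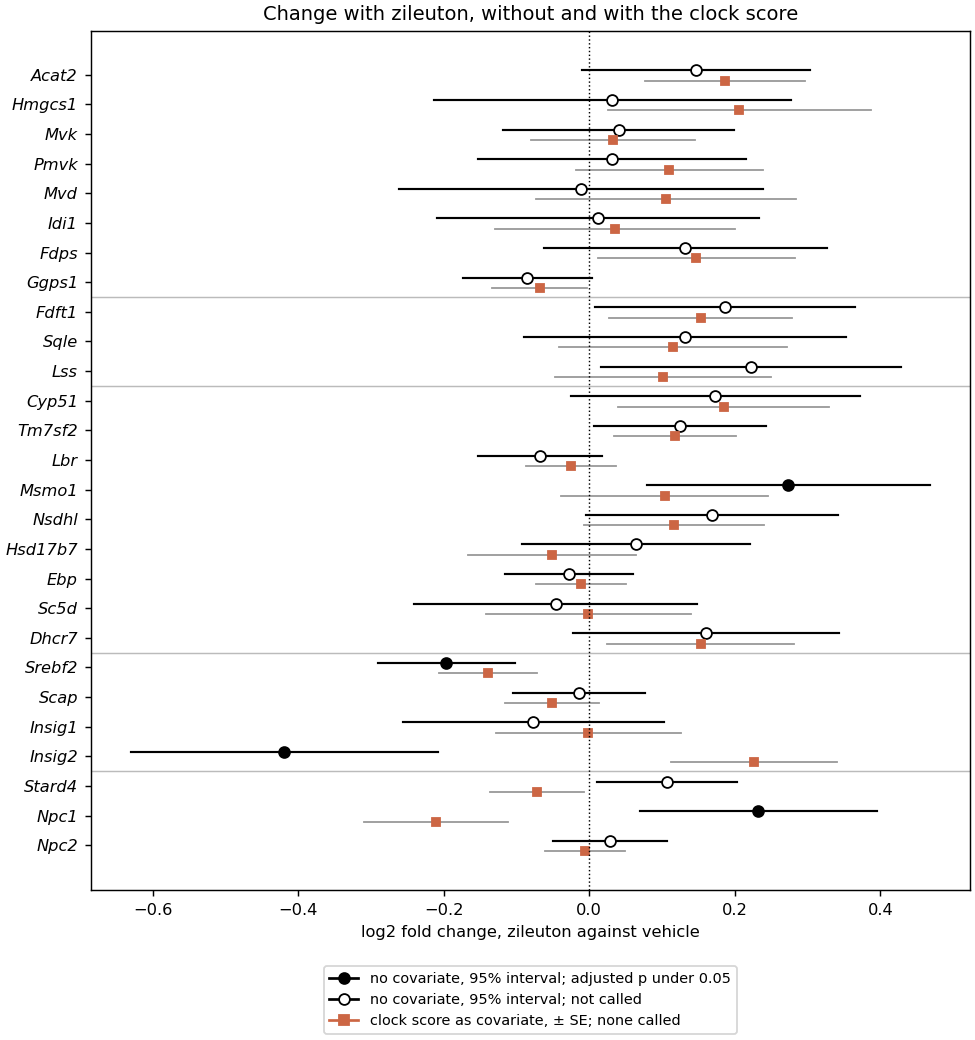
Log2 fold change (zileuton against vehicle) of the 27 tested members without a covariate (circles with 95% intervals, filled where adjusted p is under 0.05) and with the clock score as a covariate (squares ± SE). Insig2 moves from −0.42 to 0.23 and Npc1 from 0.23 to −0.21, while Srebf2 stays below 0 in both fits.

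Within a group, where exposure does not differ, the slope on the clock score was tested after the covariate fit had been seen. Among vehicle animals 6.6% of genes followed the score (3.52% rising and 3.08% falling with it), and 2 of 27 members did. Among zileuton animals 5.47% did (2.47% rising and 3.01% falling), and 3 members did. Insig2 fell by 0.24 ± 0.050 log2 units per unit of score in vehicle animals (adjusted p = 0.00126) and by 0.30 ± 0.046 in zileuton animals (adjusted p = 6.10e-06). Npc1 rose by 0.17 ± 0.034 (adjusted p = 0.00137) and by 0.20 ± 0.045 (adjusted p = 0.00275). Stard4 rose by 0.09 ± 0.025 in zileuton animals (adjusted p = 0.0161), and its slope in vehicle animals was 0.05 ± 0.028 (adjusted p = 0.228). With the run added in zileuton animals, adjusted p was 0.0653 for Npc1 and 0.119 for Stard4. Srebf2 had slopes of −0.02 ± 0.024 and −0.02 ± 0.030 (adjusted p = 0.639 and 0.763).

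**Figure D3:**
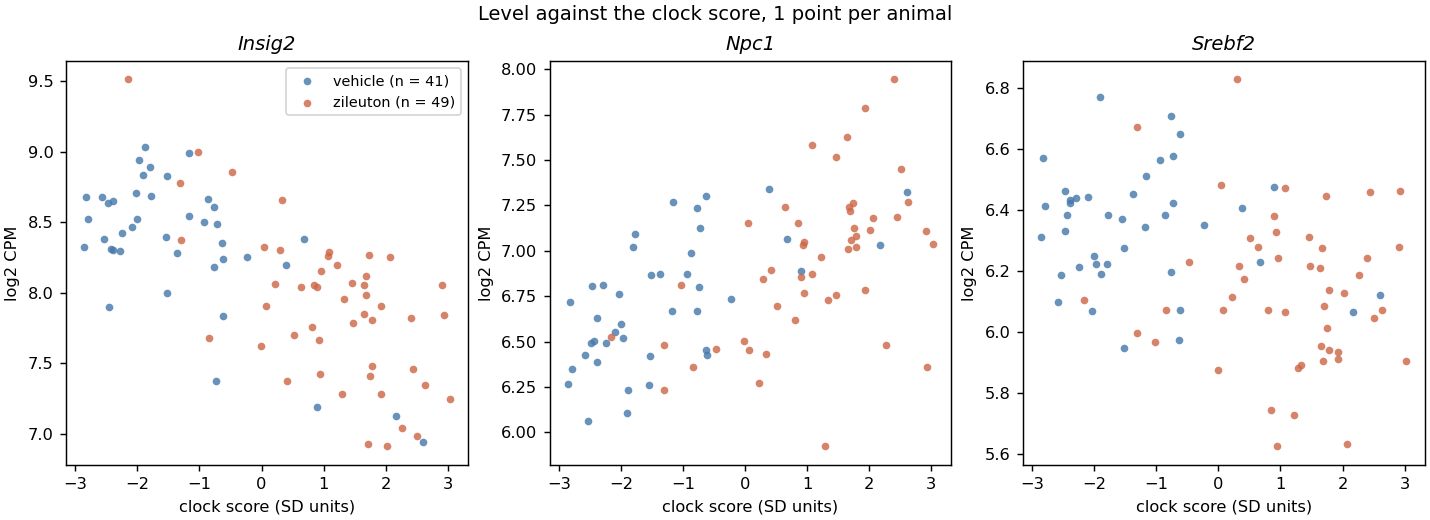
Log2 CPM of Insig2, Npc1 and Srebf2 against the clock score (SD units), 1 point per animal, for 41 vehicle and 49 zileuton animals. Insig2 goes down and Npc1 up with the score inside each group, while Srebf2 shows a slope of −0.02 in both.

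Most of the enzymes varied more between animals than the median gene did, and most varied together. The coefficient of variation was above the median of all tested genes for 16 of the 20 enzymes in vehicle animals (not Ggps1, Tm7sf2, Lbr or Ebp) and for 17 in zileuton animals (not Ggps1, Lbr or Ebp). The median coefficient of variation was 29.5% over members against 20.4% over all tested genes in vehicle animals, and 31.95% against 20.3% in zileuton animals. Between the lowest and the highest animal, Hmgcs1 differed 6.53-fold in vehicle and 9.89-fold in zileuton animals, and Mvd, the decarboxylase, 6.96-fold and 7.12-fold. Without zileuton replicate 17 the range in zileuton animals was 4.93-fold for Hmgcs1 and 3.84-fold for Mvd, and without vehicle replicate 9, the top vehicle animal, the range in vehicle animals was 4.40-fold and 6.09-fold. Ebp differed 2.32-fold and 1.89-fold. A test of the spread between groups (limma on absolute deviations) called 0 of 27 members, where it called 0.0337% of genes. Of these 27, Npc2 alone had an unadjusted p under 0.05, its deviation being 0.17 in vehicle and 0.12 in zileuton animals (adjusted p = 0.473).

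Over all 20 enzymes, 172 of 190 pairs had a rank correlation above 0 across vehicle animals and 171 of 190 across zileuton animals, with a median rho of 0.568 and 0.637. Ggps1 was below 0 with 18 and 19 of the 19 other enzymes. Acat2, Ggps1 and Lbr were left out of a synthesis score, a choice made with earlier results of these data known, and all 136 pairs of the 17 enzymes kept were above 0 in each group. For the 17, the median rho was 0.626 in 41 vehicle animals and 0.693 in 49 zileuton animals, against a median of −0.00 over all pairs of tested genes. The median Pearson r was 0.678 and 0.738. Without the 2 animals farthest from the median score it was 0.613 and 0.669, and with run means removed 0.682 and 0.760. These pairs share their libraries and are given as a description. The synthesis score, the mean of the 17 scaled log2 CPM values, ran from −2.00 to 1.59 in vehicle and from −1.35 to 2.95 in zileuton animals, and 27 of 49 zileuton animals lay above the vehicle median. The top zileuton animal, replicate 17, held the highest level of its group for 15 of the 17 enzymes. Vehicle replicate 9 did so for 10 of 17. The rank correlation of the score with the total count was 0.0559 and 0.111, and with the clock score 0.0833 and 0.0183, in vehicle and zileuton animals.

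**Figure D4:**
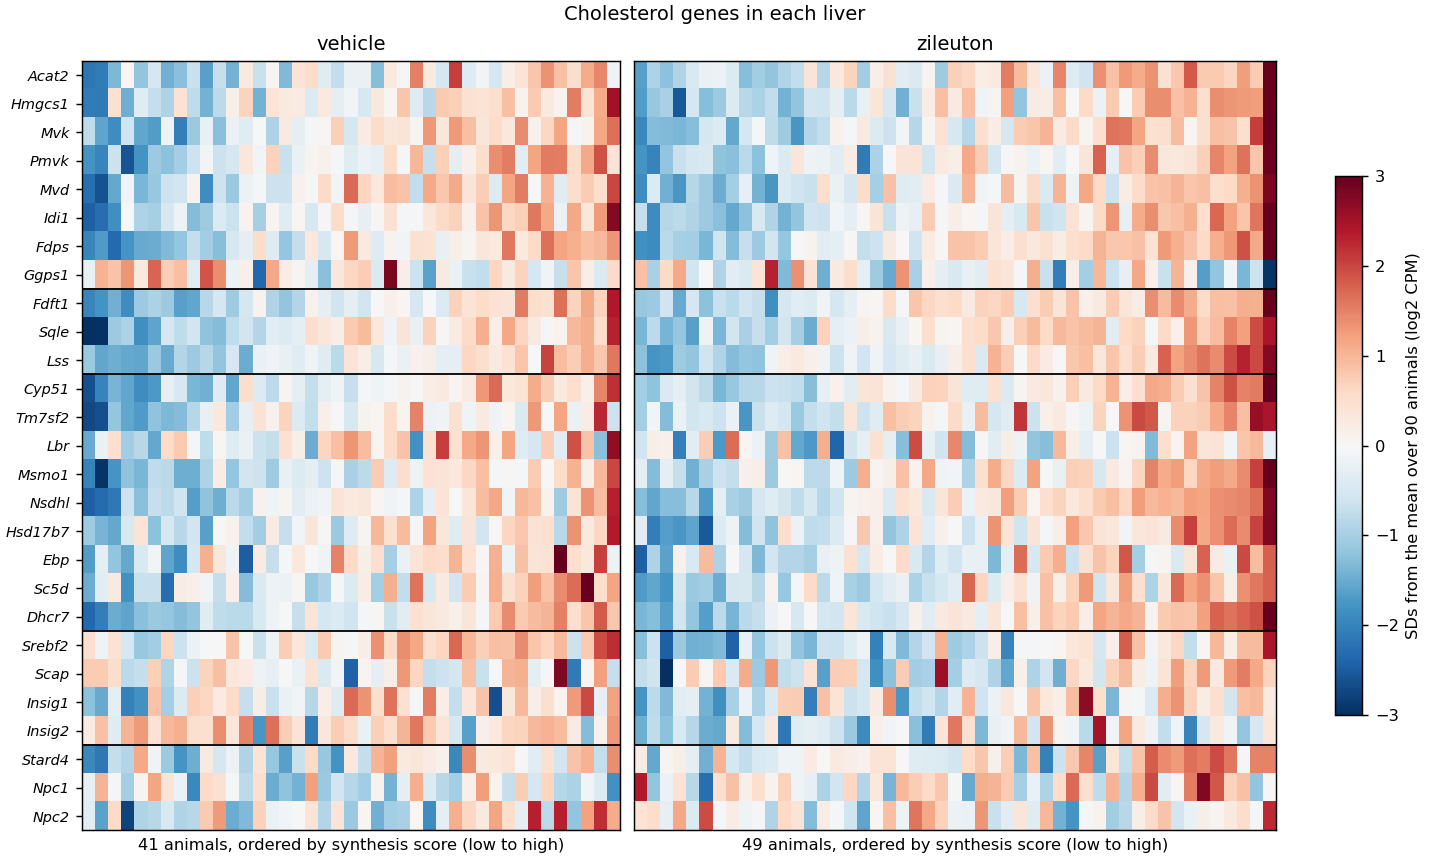
Level of the 27 tested members (rows, grouped by role) in each animal (columns, ordered by synthesis score within the group), in SDs of log2 CPM from the mean over 90 animals. Most enzymes run from low to high together in both groups, and the rows of Ggps1, Scap, Insig2 and Npc1 show no such order by eye.

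Srebf2 followed the enzymes although it is not in the score. Its Pearson r with the score was 0.613 in vehicle and 0.762 in zileuton animals (permutation p = 2.00e-05 and 1.00e-05, the latter the smallest that 100000 permutations can give). Spearman's rho was 0.649 and 0.759 (permutation p = 1.00e-05 for both). Without the 2 animals farthest from the median score r was 0.677 and 0.703, and with run means removed 0.571 and 0.80. Of the 17 enzymes Mvk had the highest rho with Srebf2 in both groups, 0.759 and 0.818. Srebf2 was lower with zileuton while no enzyme was called lower, and within each group it rose and fell with the enzymes from animal to animal.

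Of the 20 relations of this kind (10 genes outside the score in 2 groups, Benjamini-Hochberg adjusted over them), Acat2 had r of 0.702 and 0.795 (adjusted permutation p = 6.67e-05 for both) and rho of 0.709 and 0.774 (adjusted permutation p = 5.00e-05 for both). Insig1 had r of 0.463 and 0.475 (adjusted permutation p = 0.00533 and 0.00183) and rho of 0.443 and 0.515, and Stard4 r of 0.513 and 0.511 (adjusted permutation p = 0.00194 and 9.60e-04) and rho of 0.485 and 0.508. Without the 2 farthest animals r was 0.364 and 0.481 for Insig1 and 0.383 and 0.508 for Stard4. Insig2 had r of −0.102 in vehicle and 0.304 in zileuton animals (adjusted permutation p = 0.554 and 0.0526) and rho of −0.139 and 0.351 (adjusted permutation p = 0.456 and 0.0255). Ggps1 had r of −0.258 and −0.357 (adjusted permutation p = 0.147 and 0.0206), and in zileuton animals it was −0.166 without the 2 farthest animals, so that the relation rests on them. Its rho was −0.353 and −0.233 (adjusted permutation p = 0.0377 and 0.14). Scap had r of −0.0172 and 0.356 (adjusted permutation p = 0.915 and 0.0208) with rho of 0.0204 and 0.328, and Lbr 0.450 and 0.193 (adjusted permutation p = 0.00636 and 0.244). Npc2 had 0.475 and 0.0965 (adjusted permutation p = 0.00432 and 0.554). Npc1 had −0.196 and 0.176 (adjusted permutation p = 0.267 for both). Whether a relation differs between the groups was not tested.

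**Figure D5:**
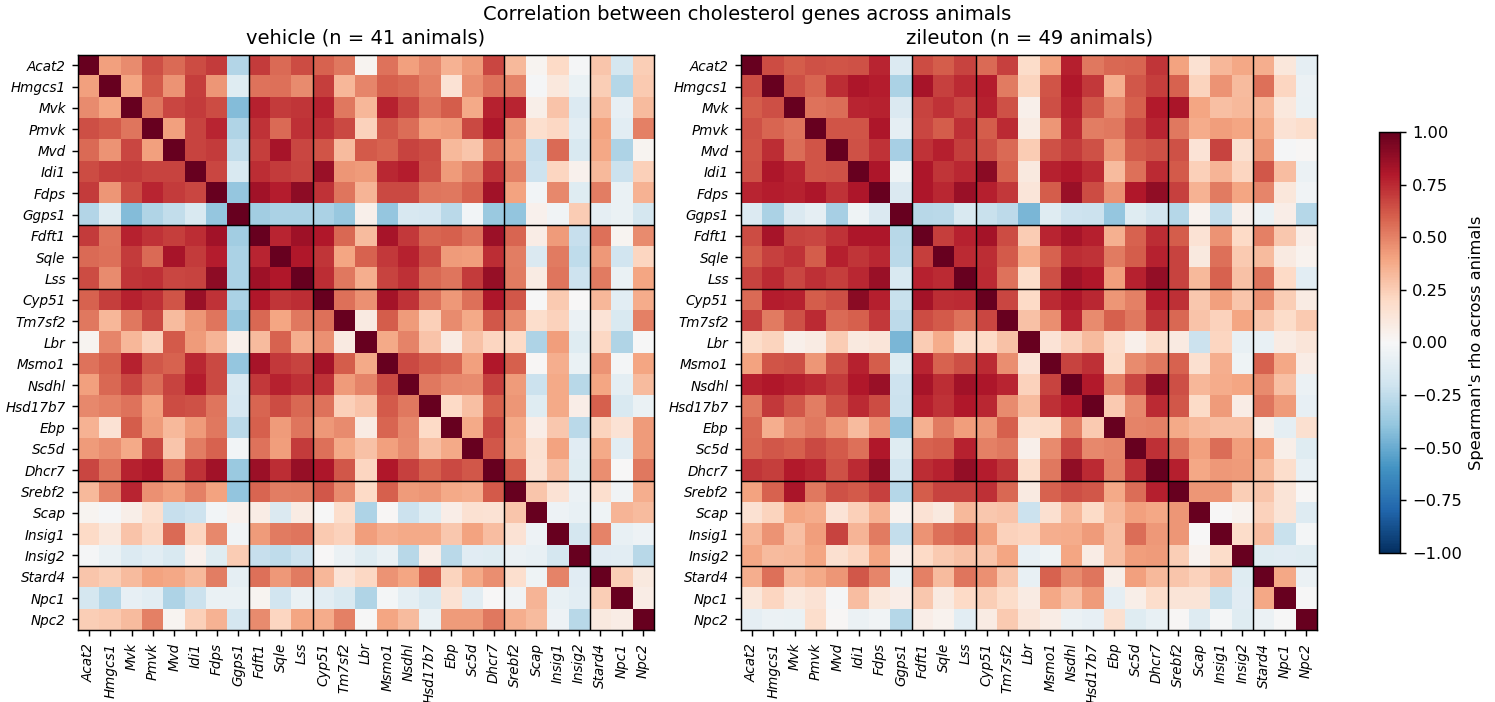
Spearman's rho between each pair of the 27 tested members across 41 vehicle (left) and 49 zileuton animals (right), with lines between the roles. The enzymes form a block of positive values in both groups with median rho 0.626 and 0.693 over the 17 of the score, and Ggps1 is a pale or blue line through it.

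Outside the set, the genes most like the synthesis score, by the smaller of the rank correlations in the 2 groups over 13221 genes, were Rdh11, a retinol dehydrogenase (rho 0.851 and 0.765), Acss2, which makes acetyl-CoA from acetate (0.764 and 0.772), Mmab, a cobalamin enzyme (0.713 and 0.763), and Erg28, a scaffold of sterol enzymes (0.654 and 0.711). Next came Acly, the citrate lyase (0.592 and 0.579), the mitochondrial citrate carrier Slc25a1 (0.541 and 0.602), Idh1 (0.595 and 0.536) and Gpam (0.530 and 0.559). Mmab starts 209 bases from Mvk on the other strand of chromosome 5. Slc25a1 rose by 0.18 ± 0.043 on the log2 scale (adjusted p = 5.72e-04), and the other 7 named here were not called.

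Other genes of the pathway were taken from a list of 17 measured ones, of which 7 were higher, 2 lower and 8 not called, where 14.4% of all genes were higher and 14.8% lower. With the clock score or position in the run as a covariate 0 of the 17 were called. Tmem97, a sterol-responsive membrane protein chosen after its values were seen, rose by 0.22 ± 0.058 (adjusted p = 0.00149). Dhdds, of the dolichol branch, fell by 0.15 ± 0.043 (adjusted p = 0.00421). Of 15 genes that process or turn over SREBPs, 5 were higher and 2 lower. With position as a covariate 0 of the 15 were called and with the clock score 1, Ube2g2 (named after its values were seen), so that none of the 4 named next was called in either fit. Prkaa2, a catalytic subunit of AMP-activated kinase, rose by 0.21 ± 0.048, and Mbtps2, the protease that makes the last cut in SREBPs, by 0.18 ± 0.038 (adjusted p = 4.82e-04 and 8.83e-05). Fbxw7, which marks active SREBPs for breakdown, fell by 0.13 ± 0.036, and Faf2, of the INSIG degradation route, by 0.08 ± 0.025 (adjusted p = 0.00271 and 0.00679).

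Between the 8 runs of animal numbers 1.02% of genes differed and 0 of 27 members did by edgeR or limma-voom, with 0 at an unadjusted p under 0.05. Along the position in the run, 0% of genes were called among zileuton animals and 0% among vehicle animals, and 0 members by either tool. In zileuton animals Insig2 and Npc1 had an unadjusted p under 0.05, with slopes of −0.03 ± 0.0093 and 0.02 ± 0.0078 per number (adjusted p = 0.182 and 0.253). In vehicle animals 0 members did. White coats differed from agouti in 0.00755% of genes and black coats in 0.0453%, with 0 members in either by edgeR or limma-voom. The white and black groups were small (6 and 9 white, 6 and 6 black, in vehicle and zileuton animals). At an unadjusted p under 0.05 there were 3 for white coats, Stard4, Msmo1 and Hsd17b7, each lower (−0.18 ± 0.064, −0.29 ± 0.13 and −0.22 ± 0.11), and 2 for black coats, Acat2 and Npc2.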

How the data were processed

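Liver RNA of 90 mice was sequenced with the TruSeq kit, per the labels' protocols. The authors deposited estimated counts per gene and animal, made from the reads before deposit, and these were rounded to whole numbers. In the second deposited table the authors divided these by 1 size factor per library, giving a signal used only as an alternative. The submitters' processing notes name STAR, Partek, DESeq2 and mm10. Counting tool and annotation: not given in the sources used here.

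Groups came from the exposure label. edgeR 4.0.16 (TMM, filterByExpr, robust quasi-likelihood F test, two-sided) was fitted on 13248 genes, with Benjamini-Hochberg adjustment over all of them and calls at an adjusted p under 0.05. Intervals are 95%. The common biological coefficient of variation was 32.1%. Spread was tested with limma 3.58.1 on log2 CPM (prior count 2). Alternatives covered scaling, filters, DESeq2 1.42.0, limma-voom, covariates and libraries left out. The fits were checked on simulated counts with 200 genes changed. Group changes of 0.2, 0.4 and 1 on the log2 scale were called for 43%, 79.5% and 95.5% of these, with 2, 9 and 10 false calls. A slope of 0.4 per 5 numbers of position among vehicle animals was called for 27.0%. A change of 0.2 or such a slope can thus be present and not called. Positions are from GENCODE M21, promoters from RefSeq, and near-identical transcripts from blastn (at least 95% identity over 500 bases). No library was a copy of another: the smallest chi-square between 2 of them was 37.4 per gene.

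Members and lists were chosen with earlier results of these data known. All members were to be named, with up to 2 genes per list and direction and the 10 genes most like the score. Of the genes so chosen, 3 are not reported here. The clock score slopes and score correlations were added after seeing the data.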

Additional observations from a re-analysis of the deposited data

How the results depend on the processing

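Against 2 members higher and 2 lower, both counts were 0 with the clock score and with position in the run as covariate. The count higher was 5 with the library code's row and column as covariates (Acat2, Fdft1, Lss, Msmo1 and Nsdhl) and 1 without run 1, 3, 5, 6 or 8. It was 3, with Stard4 added, with the run as a covariate and without run 4. It was also 3, with Fdft1 added, without run 2 and without the 9 libraries of lowest total (adjusted p for Fdft1 0.0147 and 0.0280, edgeR). Without run 7 it was 2, Msmo1 and Tm7sf2. Fdft1 passed in 3 of the 21 other settings. Leaving out 1 library at a time (90 fits) gave 1 to 3 higher and 2 lower. Srebf2 and Insig2 passed in 19 of 21 other settings, Npc1 in 16 and Msmo1 in 15. Insig2 moved to 0.23 with the clock score and 0.29 with position, and Npc1 to −0.21 and −0.16, and neither was called there. Without run 7 or 8 adjusted p for Npc1 was 0.0688 and 0.0623 (edgeR). With the library code's row and column as covariates Npc1 was at 0.17 and not called (adjusted p = 0.137). Fdft1 passed without vehicle replicate 9, Lss without vehicle replicate 30 and Tm7sf2 without vehicle replicate 22 (adjusted p = 0.0391, 0.0434 and 0.0418). Members following the clock score in zileuton animals numbered 3, and 1 with the run added. Sign changes of members called in neither fit numbered 0 to 4 per setting. Spread, run, position and coat counts of members were 0 under each alternative run. No paired analysis was possible because the replicate numbers are only the order of the samples and tie no animals together. Ggps1, the tested member with the lowest median count, had at least 49 counts in every library.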

Other observations

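Of 15 genes of SREBP1 and fatty acid synthesis, 4 were higher and 2 lower with zileuton, where 14.4% of all tested genes were higher and 14.8% lower. With the clock score or position in the run as a covariate 0 of the 15 were called. Thrsp, a regulator of lipogenesis, rose by 0.93 ± 0.18 (SE) on the log2 scale and malic enzyme (Me1) by 0.39 ± 0.12 (edgeR, adjusted p = 2.33e-05 and 0.00862). Srebf1, the partner gene of Srebf2 that drives fatty acid synthesis, fell by 0.32 ± 0.085, from 383.6 ± 108.5 to 307.8 ± 85.0 CPM (adjusted p = 0.00223), and Mlxipl, the carbohydrate-responsive factor, by 0.21 ± 0.074 (adjusted p = 0.0262).

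Of 19 genes of sterol efflux and LXR targets, 3 were higher and 3 lower, against 29.3% of all genes called in either direction, and 0 were called with either covariate. Abcg8, which with Abcg5 exports sterols into bile, rose by 0.52 ± 0.10, and Nceh1, a cholesteryl ester hydrolase, by 0.46 ± 0.11 (adjusted p = 3.26e-05 and 8.26e-04). Scarb1, the HDL receptor, fell by 0.30 ± 0.069 and Gramd1c, a sterol carrier, by 0.29 ± 0.059 (adjusted p = 4.34e-04 and 6.23e-05). Of 6 genes of bile acid synthesis 0 were called by edgeR, DESeq2 or limma-voom, and 0 had an unadjusted p under 0.05. Vehicle livers held Cyp27a1 at 324.7 ± 74.7 CPM, and zileuton livers at 316 ± 69.6 CPM. All 5 markers of the drug-sensing receptors CAR and PXR were higher, 2 of them also with the clock score and 3 with position as covariate.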
